A study of Sus scrofa with 9 samples.

Results

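Rab, ARF, SNARE and VPS genes, which encode much of the machinery that moves membrane vesicles through a cell, were followed in the sow mammary gland from late pregnancy into lactation. The members were taken by name alone: probe sets annotated to a single symbol that begins with RAB, ARF, ARL, STX, VAMP, SNAP, SNX or VPS followed directly by a digit. The rule left out 2 genes that match, which are not analysed here. This gave 92 genes (142 probe sets) among 6765 genes with a single symbol on the array. Of these, 86 genes (122 probe sets) were bright enough to be tested, and the other 6 stayed dim on most arrays. The rule itself uses no measured value, though it was set with earlier results of these data known. A symbol is not a function, and the members include genes that share only a prefix, such as the chromatin protein gene VPS72.

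The tissue came from 6 Large White sows, each biopsied in the anterior glands of the right side on 3 occasions: day -17 (late pregnancy, allowing 2 days either way), day 1 and day 17 (again allowing 2 days) relative to parturition. The sows had no treatment other than standard management on a corn and soybean meal diet, and all 3 days share this. Equal volumes of RNA from 2 sows were pooled for each Affymetrix porcine array, so each day has 3 pools and the study 9 arrays. The labels do not say which sows made up a pool, nor whether a pool number stands for the same sows on each day. All p-values therefore measure the spread between these pools, and the number of arrays limits the precision. The main test took day as the only factor and treated the arrays as independent, so it ignored the repeated sampling of the 6 sows.

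Rab, ARF and ARL proteins are small GTPases that switch between an active, membrane-bound form and an inactive form, and the active form recruits coats, motors and tethers to a vesicle. SNARE proteins, among them the syntaxins, VAMPs and SNAP-25 family, zip together across 2 membranes and drive their fusion. Sorting nexins and VPS proteins form the retromer, ESCRT and HOPS machineries, which sort cargo in endosomes and deliver it to lysosomes. In the lactating gland the alveolar epithelial cell sends milk proteins through the ER and Golgi into vesicles that fuse with the apical membrane.

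Values are MAS5 signals on a linear scale, scaled to the same trimmed mean of about 500.1 on every array, so a rise or fall is relative to the average signal of an array. Signals are listed in the order of pools 1, 2 and 3, and probe signals of different genes are not compared with each other. Differences are log2 differences ± standard error from limma (n = 3 pools per day), with p-values adjusted by the Benjamini-Hochberg method over all 15519 tested probe sets, and a gene passed the test at an adjusted p under 0.05. The 3 comparisons share pools and are not independent of each other. Relative to 21 E. coli control probe sets, the average array signal fell with time. Scaling to those controls lowered every log2 difference by 0.429 for day 1 against day -17, by 0.874 for day 17 against day 1 and by 1.3 for day 17 against day -17, so any rise smaller than these amounts turned into a fall.

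The tissue behind the signals also changed. The summed signal of 7 milk protein markers was 60480 to 85930 on day -17, 216800 to 304300 on day 1 and 458600 to 468500 on day 17, and 6 and then 7 of them were higher than on day -17 on the 2 lactation days. Of 5 fibroblast markers tested, 4 were lower on day 17 than on day -17 (summed signal 36680 to 50120 against 16100 to 18000). Of 5 adipocyte markers, 3 were lower and FABP4 was higher, with ADIPOQ at 547, 73.9 and 319 on day -17 and at 23.2, 8.87 and 7.22 on day 17. Of 7 luminal epithelial markers, EPCAM, CLDN3 and CLDN4 were higher and KRT8 and KRT19 lower on day 17, and 1 of 5 endothelial markers (PECAM1) was lower. Of 3 tested leukocyte markers, CD14 was higher, and of 3 myoepithelial markers ACTA2 and OXTR were higher. By day 1 the fibroblast markers LUM and THY1 and the adipocyte markers RBP4 and GPD1 were lower than on day -17. So were the endothelial marker VWF and the leukocyte marker CD8A. EPCAM, CLDN3, CLDN4 and CD14 were higher by day 1, and no myoepithelial marker passed then. All day 17 signals of the adipocyte markers ADIPOQ, RBP4 and GPD1 lay below the 40th percentile of their arrays (90.7 to 94.2), near the floor. The 3' to 5' signal ratio of beta-actin, a measure of RNA integrity, was 7.01 to 7.26 on day -17, 8.39 to 9.57 on day 1 and 14.5 to 15.9 on day 17. The same ratio of GAPDH moved the other way, from 2.38 to 3.06 on day -17 to 2.25 to 2.32 on day 1 and 1.77 to 1.98 on day 17. What part these shifts have in any difference below was not tested, and in whole tissue fewer cells of a type and less RNA per cell cannot be told apart.

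From day -17 to day 1, 15 of the 86 trafficking genes rose (17.4%, against 15.3% of all 5670 tested genes) and 6 fell (6.98%, against 10.4%). The members' median log2 difference was 0.0249, and that of all tested genes -0.000822. From day 1 to day 17, 6 rose (6.98%, against 8.02%) and 4 fell (4.65%, against 8.57%). Between day -17 and day 17, 26 rose (30.2%, against 23.8%) and 20 fell (23.3%, against 23.8%), with a median of 0.0257 against -0.0324. An F test over the 3 days passed for 39 of the 86 (45.3%), against 47.8% of all tested genes. The shares thus lay near those of the array as a whole, and what follows is an account of which members moved. In sequence, 11 genes rose by day 1 with no further change that passed the test, 3 rose in both intervals, 4 fell by day 1 without passing afterwards, and 1 fell in both. ARF2 rose and then fell, ARL6IP1 fell and then rose, 2 genes rose and 2 fell in the second interval alone, and 61 passed in neither interval.

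The split between rises and falls rests on the scaling of the arrays. With each array centred on its median, 22 members rose and 4 fell from day -17 to day 1. All tested genes shifted the same way, to 1049 and 387 from 865 and 590 on the deposited scale. With scaling to the E. coli controls the counts were 9 and 34 for day 1 against day -17, 1 and 72 for day 17 against day 1, and 4 and 72 for day 17 against day -17, while all tested genes gave 372 and 2252, 41 and 4343, and 179 and 4754. Under that scaling 9 of the 15 rises by day 1 and 4 of the 26 rises by day 17 kept their call. All 6 and all 20 falls kept theirs. This scaling lowers every difference, so it could only enlarge a fall, and the kept calls are no support for the falls.

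**Figure D1:**
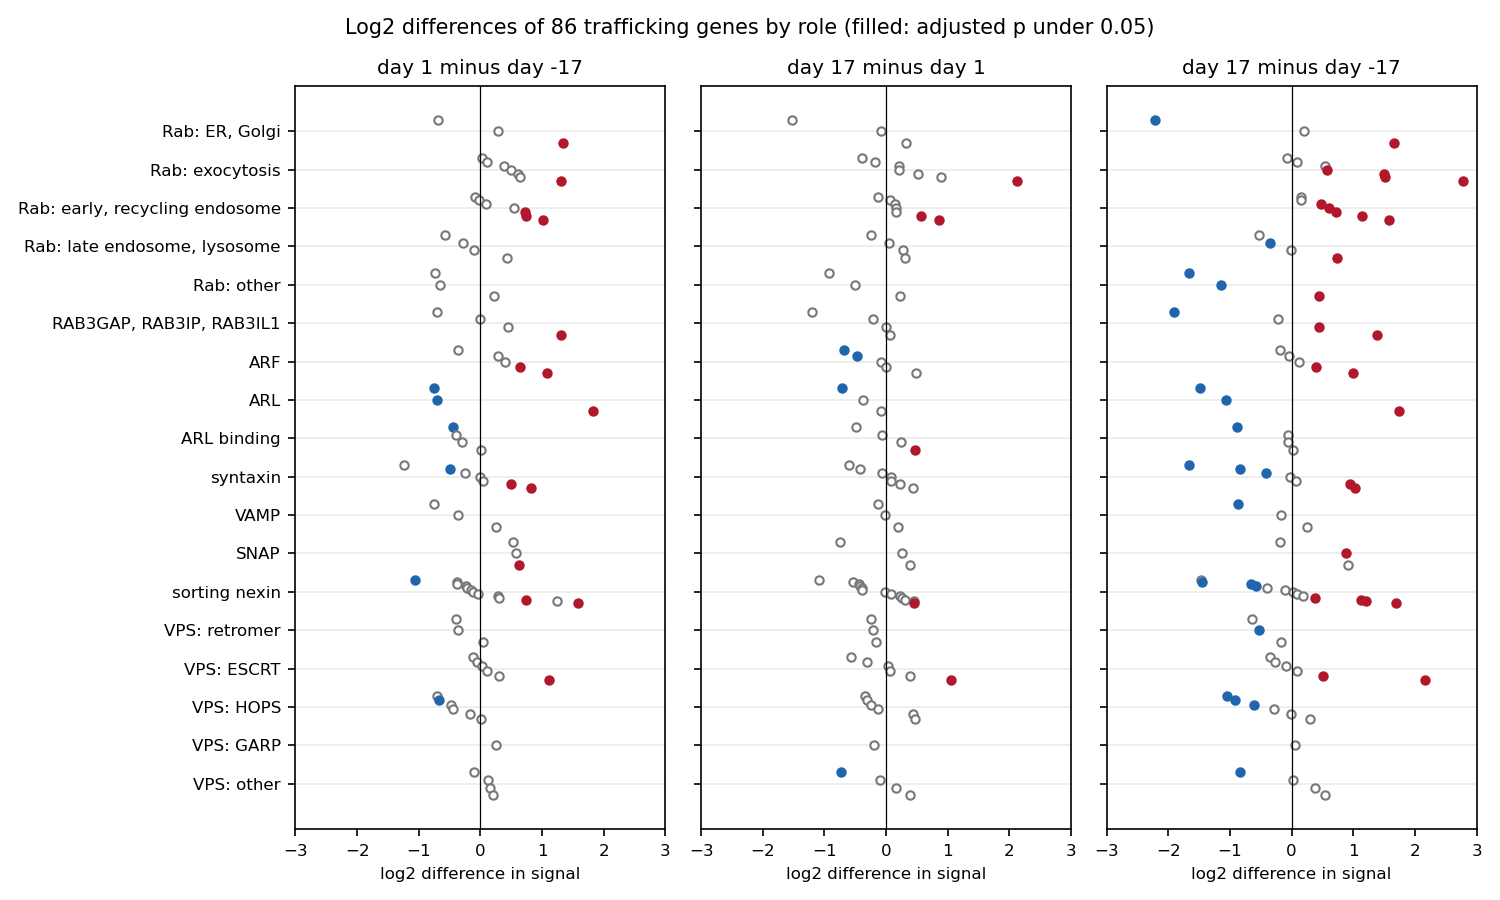
Each point is 1 of the 86 tested trafficking genes, placed by its log2 difference in signal (x axis) and its role (rows), for the 3 comparisons. Red points passed the test as higher (15, 6 and 26 genes), blue points as lower (6, 4 and 20), and open points did not pass. With scaling to the E. coli controls all points move left by 0.429, 0.874 and 1.3. Of the red points, 0 of 15, 4 of 6 and 17 of 26 then cross 0.

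Single arrays weighed on the smaller counts. The 6 falls by day 1 became 3 without pool 1 of day -17, without pool 2 of day -17 or without pool 3 of day 1. The 6 rises from day 1 to day 17 became 2 without pool 1 of day 17, and 3 without pool 3 of day -17, pool 2 of day 17 or pool 3 of day 17. The 4 falls of the same interval became 0 without pool 3 of day -17 or pool 1 of day 17, 1 without pool 1 of day -17, pool 2 of day 17 or pool 3 of day 17, and 2 without pool 2 of day 1 or pool 3 of day 1. The 20 falls between day -17 and day 17 became 13 without pool 1 of day -17.

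Among the Rabs of the ER and Golgi, RAB1A rose, RAB34 fell and RAB2A did not pass in its brightest probe set. RAB1A, which acts between the ER and the Golgi, had signals of 3852, 3680 and 3542 on day -17, of 7847, 9334 and 11270 on day 1, and of 10740, 13160 and 11340 on day 17. All 6 lactation pools lay above all pregnancy pools, and the ranges of the 2 lactation days overlapped. The difference was 1.35 ± 0.14 by day 1 (2.54-fold, adjusted p = 0.000238) and 1.67 ± 0.14 by day 17 (3.17-fold, adjusted p = 2.23e-05), and it stayed a called rise with E. coli scaling (0.92 and 0.36). Its second probe set gave 0.86 ± 0.14 and 1.10 ± 0.14, both called. RAB2A, which also works between the ER and Golgi, differed by 0.28 ± 0.11 by day 1 (adjusted p = 0.079) and 0.20 ± 0.11 by day 17 (adjusted p = 0.143). The second, dimmer probe set of RAB2A was called higher on both days, by 0.81 ± 0.22 (adjusted p = 0.0242) and 1.42 ± 0.22 (adjusted p = 0.000655).

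RAB34, a Golgi-linked Rab that also takes part in building primary cilia, had signals of 251, 340.3 and 258 on day -17, of 228, 131 and 177 on day 1, and of 20.1, 144 and 76.9 on day 17. The 3 day 17 pools spread over a wide range, yet all lay below all day -17 pools. It fell by 2.21 on the log2 scale by day 17 (SE 0.58, adjusted p = 0.0108), the largest fall among the members in that comparison. In pools 1 and 3 the day 17 signal lay below the 40th percentile of its array. The size of the fall thus rests in part on signals near the floor. Day 17 against day 1 did not pass (-1.52 ± 0.58, adjusted p = 0.105), though it did without pool 2 of day 17 (-2.15, adjusted p = 0.0385).

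Of 7 Rabs of secretory vesicles and exocytosis, 1 rose by day 1, 1 from day 1 to day 17, and 4 between day -17 and day 17, and none fell in limma at the deposited scale (0 at an unadjusted p under 0.05 in each comparison). The rises made 14.3%, 14.3% and 57.1% of the 7, against 15.3%, 8.02% and 23.8% of all tested genes. Their median log2 difference by day 17 was 0.581. RAB3D, a Rab of secretory granules, had signals of 681, 977 and 905 on day -17, of 1804, 2264 and 2214 on day 1, and of 2395, 2484 and 2391 on day 17. Pregnancy and lactation pools were wholly separate, and so were the 2 lactation days, although their difference did not pass (0.22 ± 0.16, adjusted p = 0.381). The rise was 1.30 ± 0.16 by day 1 (2.47-fold, adjusted p = 0.000502) and 1.52 ± 0.16 by day 17 (2.87-fold, adjusted p = 6.45e-05). Scaled to the E. coli controls, it was 0.87 and still called by day 1, and 0.22 with an adjusted p of 0.19 by day 17.

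RAB26, a Rab linked to secretory granules, rose late. Its signals were 35.8, 67 and 60.8 on day -17, 71.1, 89.1 and 87.2 on day 1, and 466, 280.4 and 355 on day 17. The day 17 pools all lay far above the other 6, and those of day -17 and day 1 stood close together without overlapping. Day 1 against day -17 did not pass (0.64 ± 0.31, adjusted p = 0.161). The rise from day 1 to day 17 was 2.13 ± 0.31 (4.38-fold, adjusted p = 0.00371) and that from day -17 to day 17 was 2.77 ± 0.31 (6.83-fold, adjusted p = 0.000107). All day -17 signals lay below the 40th percentile of their arrays. On day 1 pool 1 did too (71.1 against 89.08), and pools 2 and 3 stood just above theirs (86.38 and 82.14). The sizes of both rises thus rest on signals near the floor. RAB26 kept both calls without any single array and with E. coli scaling (1.26 and 1.47).

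RAB27B, which docks secretory vesicles at the plasma membrane, had signals of 143, 388 and 272 on day -17, of 236, 440 and 511 on day 1, and of 893, 654 and 587 on day 17. Day 17 lay above day -17 in all pools (1.503 ± 0.38, 2.83-fold, adjusted p = 0.0089), while day 1 overlapped day -17. RAB10, which carries vesicles to the basolateral and plasma membrane, rose by 0.58 ± 0.13 by day 17 (adjusted p = 0.00471). By day 1 it gave 0.38 ± 0.13 (adjusted p = 0.0568, and 0.0448 with pool number as a block). Its 4 probe sets gave 0.379 to 1.268 by day 1, with the brightest the lowest, and 1 dimmer probe set was called higher. By day 17 all 4 rose, by 0.556 to 1.747, and the brightest stood near the low end. Under E. coli scaling RAB27B came to 0.20 (adjusted p = 0.613) and RAB10 turned to -0.72.

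RAB3A, RAB8A and RAB13 passed in no comparison. RAB3A, a Rab of regulated exocytosis best known from nerve terminals, was dim (98.4 to 198 across the 9 pools). RAB8A, which works in apical and ciliary transport, ranged from 103 to 181, and RAB13, a Rab of tight junction traffic, from 1170 to 2478.

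Of 7 Rabs of early and recycling endosomes, 3 rose by day 1, 2 from day 1 to day 17 and 5 between day -17 and day 17 at the deposited scale, with a median of 0.613 by day 17. These were 42.9%, 28.6% and 71.4% of the 7, where all tested genes gave 15.3%, 8.02% and 23.8%. Under E. coli scaling 4 of those 5 turned to falls by day 17 and RAB15 did not. RAB11A, the marker Rab of recycling endosomes, had signals of 2248, 2312 and 2283 on day -17, of 4008, 4537 and 5293 on day 1, and of 5269, 5144 and 4763 on day 17. The pregnancy pools were nearly equal and all lay below the lactation pools, whose 2 days overlapped. RAB11A rose by 1.01 ± 0.12 by day 1 (2.01-fold, adjusted p = 0.000507) and by 1.15 ± 0.12 by day 17 (adjusted p = 7.44e-05). Its second probe set did not pass, at 0.26 ± 0.15 (adjusted p = 0.21) and 0.20 ± 0.15 (adjusted p = 0.269). With E. coli scaling RAB11A was at 0.58 by day 1, still called, and at -0.16 by day 17.

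RAB15, a Rab of sorting and recycling endosomes, rose in both intervals. Its signals were 118.5, 152.5 and 124 on day -17, 156, 273 and 233 on day 1, and 423, 360.5 and 389 on day 17. All 3 days were separate from each other, with pool 1 of day 1 just above the highest day -17 pool. The differences were 0.72 ± 0.23 by day 1 (adjusted p = 0.0457), 0.86 ± 0.23 from day 1 to day 17 (adjusted p = 0.0353) and 1.58 ± 0.23 between day -17 and day 17 (2.98-fold, adjusted p = 0.000471). The first of these was lost on leaving out any array but pool 1 of day 1 (adjusted p 0.0555 to 0.149), with no filter (0.0732) and in a fit of the 6 compared arrays alone (0.0925). The second was lost on leaving out any array but pool 1 of day -17, pool 2 of day -17 or pool 2 of day 1 (adjusted p 0.0523 to 0.104), with no filter (0.0554) and in the 6 arrays alone (0.0513), and with E. coli scaling it was -0.016. That scaling also ended the calls by day 1 (0.29, adjusted p = 0.301) and between day -17 and day 17 (0.27, adjusted p = 0.265).

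RAB22A, a Rab of early endosomes, had signals of 911, 991 and 1016 on day -17, of 857, 1013 and 883 on day 1, and of 1492, 1302 and 1283 on day 17. The first 2 days overlapped and day 17 stood above both. It rose by 0.57 ± 0.13 from day 1 to day 17 (adjusted p = 0.0192), a call lost without pool 1 of day 17 and without pool 3 of day 1 (adjusted p 0.0698 and 0.0528), and by 0.48 ± 0.13 from day -17 (adjusted p = 0.0122). E. coli scaling reversed both (-0.31 and -0.82). RAB14, a Rab between the Golgi and early endosomes, had signals of 289, 337 and 268 on day -17 and of 504, 427 and 565 on day 1. It rose by 0.74 ± 0.16 by day 1 (adjusted p = 0.00968), a call lost with E. coli scaling (0.31, adjusted p = 0.141), and by 0.61 ± 0.16 by day 17 (adjusted p = 0.0111), where it was -0.69 with E. coli scaling. RAB4B, a Rab of fast recycling, rose by 0.71 ± 0.19 by day 17 (adjusted p = 0.0115; -0.59 with E. coli scaling). RAB11B and RAB35, both recycling Rabs, passed in no comparison in their brightest probe sets, at 0.15 ± 0.20 and 0.15 ± 0.13 by day 17. The dimmer probe set of each was called higher by day 17, at 1.44 ± 0.46 for RAB11B (adjusted p = 0.0264) and 0.86 ± 0.25 for RAB35 (adjusted p = 0.0175).

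**Figure D2:**
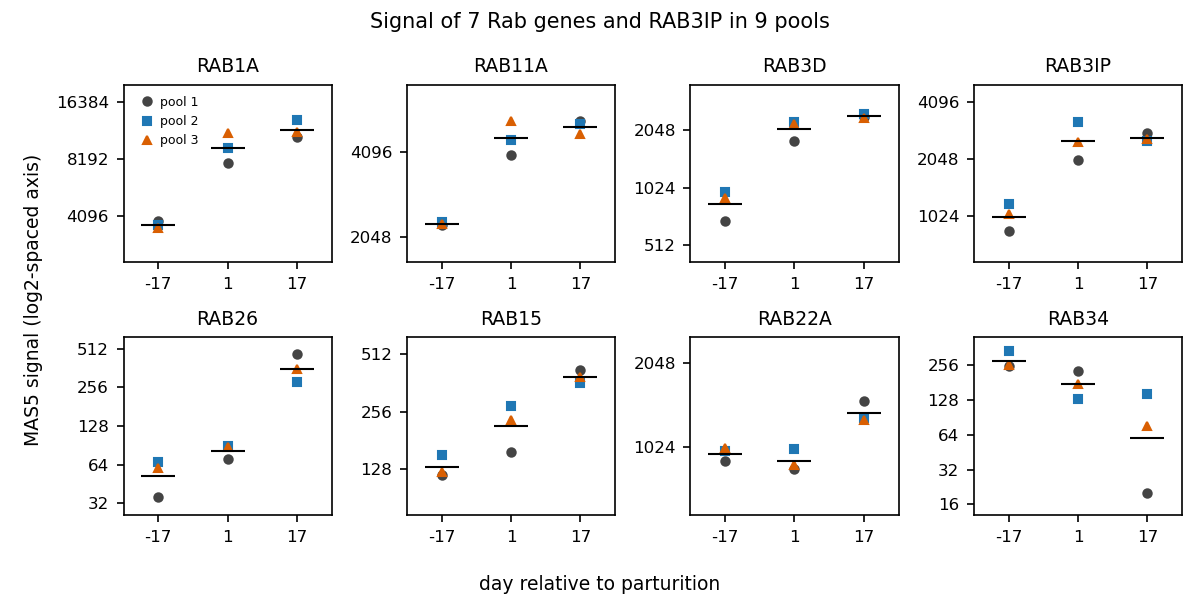
Points are the MAS5 signals of 7 Rab genes and RAB3IP in the 9 pools (marker shape and colour give the pool number), against the day relative to parturition, on log2-spaced axes; bars are the means of the log2 signals of each day. RAB1A, RAB11A, RAB3D and RAB3IP stepped up by day 1, RAB26, RAB15 and RAB22A were highest on day 17, and RAB34 was lowest there. With scaling to the E. coli controls RAB11A and RAB22A were lower on day 17 than on day -17 (-0.16 and -0.82).

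The 4 Rabs of late endosomes, lysosomes and related organelles gave 0 calls by day 1 and 0 from day 1 to day 17 in limma (1 and 0 at an unadjusted p under 0.05), counted in their brightest probe sets. Their log2 differences ran from -0.573 to 0.424 by day 1 and from -0.246 to 0.314 from day 1 to day 17. Over all tested genes, 15.3% rose and 10.4% fell by day 1, and 8.02% and 8.57% from day 1 to day 17. RAB7A, the Rab that directs late endosomes to lysosomes, had signals of 2297, 1845 and 2088 on day -17, of 1909, 1917 and 1968 on day 1, and of 1634, 1615 and 1636 on day 17. Day 17 lay below both other days in every pool, and the fall from day -17 was small (-0.34 ± 0.12, 1.27-fold, adjusted p = 0.0333). This call was lost without any day 17 pool, without pool 1 of day -17 or without pool 3 of day -17 (adjusted p 0.0736 to 0.113), with median centring (0.139) and without an intensity trend (0.0575). RAB32, a Rab of lysosome-related organelles and mitochondria, rose by 0.74 ± 0.22 by day 17 (adjusted p = 0.0197), from 789.6, 505 and 531.5 to 1081, 845 and 1076. The call was lost on leaving out pool 2 of day -17, pool 3 of day -17, pool 1 of day 17 or pool 3 of day 17 (adjusted p 0.0638 to 0.0698), and it reversed with E. coli scaling (-0.57). RAB9A, which returns cargo from late endosomes to the Golgi, gave -0.57 ± 0.21 by day 1 (adjusted p = 0.0754) and -0.52 ± 0.21 by day 17 (adjusted p = 0.0666). RAB24, a Rab linked to autophagy, gave -0.28 ± 0.20 by day 1 (adjusted p = 0.311) and -0.00 ± 0.20 by day 17 in its brightest probe set. The dimmer probe sets of both genes were called lower by day 1, at -0.89 ± 0.27 for RAB9A (adjusted p = 0.0392) and -1.14 ± 0.20 for RAB24 (adjusted p = 0.00344). That of RAB24 was also lower by day 17 (-0.99 ± 0.20, adjusted p = 0.00287).

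Of the 3 remaining Rabs, RAB23 and RAB28 fell by day 17 and RAB40C rose. RAB23, a Rab that restrains Hedgehog signalling, had signals of 1290, 376.5 and 614 on day -17, of 926, 213 and 332 on day 1, and of 228, 192 and 216.5 on day 17. Pool 1 was the highest on each of the 3 days, and all day 17 pools lay below all day -17 pools. The same day -17 pool was the highest of that day for every tested adipocyte marker and for the fibroblast markers COL1A2, DCN, LUM and THY1. For COL3A1 it was not (121.5, against 134.6 in pool 3). It was the lowest for every tested luminal epithelial marker, with KRT8 at 2178, 6925 and 5745. The part of this in the fall of RAB23 was not tested. The fall was 3.16-fold (-1.66 ± 0.53, adjusted p = 0.0255). It was lost without any day 17 pool or without pool 1 or 3 of day -17 (adjusted p 0.0542 to 0.0868) and with the mean over its probe sets (-1.33, adjusted p = 0.0804). By day 1 it did not pass (-0.73 ± 0.53), but it did without pool 1 of day 1 (-1.33, adjusted p = 0.0419).

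RAB28, a Rab of cilia and photoreceptor cells, had 2 bright probe sets that fell on different schedules. The brighter over all arrays had signals of 1145, 717 and 1031 on day -17, of 743, 440.2 and 666 on day 1, and of 382.5, 358 and 560.1 on day 17. In it the neighbouring days overlapped, and only the fall by day 17 passed (-1.15 ± 0.26, adjusted p = 0.00484; by day 1 -0.65 ± 0.26, adjusted p = 0.0908, and 0.0235 with pool number as a block). The second had 1067, 919 and 933 on day -17, 221, 283.5 and 163 on day 1, and 342, 242.5 and 282 on day 17. Its fall was complete by day 1 (-2.16 ± 0.22, 4.48-fold, adjusted p = 0.000184), and the mean of both probe sets gave -1.41 (adjusted p = 0.000472). RAB40C, a Rab that serves a ubiquitin ligase, rose by 0.44 ± 0.15 by day 17 (adjusted p = 0.0335; -0.86 with E. coli scaling), a call lost without any day -17 pool, pool 1 of day 17 or pool 3 of day 17 (adjusted p 0.0526 to 0.117).

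A pair of exchange factors for RAB3 and RAB8 proteins moved in opposite directions. RAB3IP (Rabin8) had signals of 854, 1183 and 1048 on day -17, of 2031, 3201 and 2506 on day 1, and of 2799, 2552 and 2618 on day 17. Every lactation pool lay above every pregnancy pool, and it rose by 1.31 ± 0.18 by day 1 (2.49-fold, adjusted p = 0.000944) and 1.38 ± 0.18 by day 17 (2.60-fold, adjusted p = 0.000237; 0.08 with E. coli scaling). Its relative RAB3IL1 had signals of 310.5, 113.5 and 199 on day -17, of 210, 85 and 91.7 on day 1, and of 79.3, 63 and 26.9 on day 17. Pool 1 was again the highest on each day, and day 17 lay below day -17 in all pools. All 3 day 17 signals lay below the 40th percentile of their arrays, near the floor. Against them the fall by day 17 was 3.74-fold (-1.90 ± 0.53, adjusted p = 0.0137), and without pool 1 of day -17 it did not pass (adjusted p = 0.0543). The RAB8A signal itself did not pass in any comparison (above).

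RAB3GAP1 and RAB3GAP2 encode the subunits of a complex that regulates RAB3 proteins. RAB3GAP1 differed by -0.22 ± 0.12 by day 17 (adjusted p = 0.169). RAB3GAP2 rose by 0.44 ± 0.15 by day 17 (adjusted p = 0.0385) in its brightest probe set, while the other 2 gave -0.21 ± 0.16 and 0.14 ± 0.74 and their mean 0.12 (adjusted p = 0.682). The RAB3GAP2 call was also lost without pool 2 or 3 of day -17, pool 2 of day 1, pool 1 of day 17 or pool 3 of day 17 (adjusted p 0.0505 to 0.134) and without an intensity trend (0.0513), and E. coli scaling gave -0.86. By day 1 it passed with pool number as a block (0.44, adjusted p = 0.0451).

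ARF proteins recruit coats and lipid-modifying enzymes to Golgi and plasma membranes. Of 5 ARF genes, 2 rose by day 1, 2 fell from day 1 to day 17, and 2 were higher on day 17 than on day -17. Each made 40% of the 5, against 15.3%, 8.57% and 23.8% of all tested genes. ARF4, which acts in the early secretory pathway, had signals of 7479, 6466 and 7785 on day -17, of 12730, 16000 and 17450 on day 1, and of 15200, 13550 and 14540 on day 17. The lactation pools lay wholly above the pregnancy pools, with the day 17 pools inside the range of day 1. The rise was 1.08 ± 0.13 by day 1 (2.11-fold, adjusted p = 0.000568) and 1.00 ± 0.13 by day 17 (adjusted p = 0.000285). Scaled to the E. coli controls, it was 0.65 by day 1, still called, and -0.31 by day 17.

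ARF1, the ARF that assembles COPI coats on the Golgi, had signals of 7559, 7992 and 9112 on day -17, of 8476, 10620 and 10870 on day 1, and of 8088, 6485 and 7050 on day 17. Each lactation day overlapped day -17, and the 2 lactation days were separate from each other. ARF1 fell from day 1 to day 17 (-0.47 ± 0.14, adjusted p = 0.0468). The call was lost without any array but pool 1 of day 1 (adjusted p 0.0523 to 0.148) and with median centring, no filter, no intensity trend or the 6 compared arrays alone (0.0643 to 0.0938). By day 1 it passed only without pool 1 of day 1 (0.39, adjusted p = 0.0407), and by day 17 with quantile normalization (-0.40, adjusted p = 0.0201). It also passed by day 17 with E. coli scaling (-1.50, adjusted p = 1.76e-06), which lowers every difference and so is no support for a fall.

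ARF2, a close relative of ARF1, had signals of 706, 540.2 and 766.5 on day -17, of 1122, 847 and 1164 on day 1, and of 736.5, 510.3 and 702 on day 17. Day 1 stood above both other days, which overlapped. It rose by 0.64 ± 0.20 (adjusted p = 0.0436) and fell again (-0.69 ± 0.20, adjusted p = 0.0482). Its second, much dimmer probe set rose by 1.17 ± 0.30 by day 1 and was still up by 1.28 ± 0.30 on day 17 (adjusted p = 0.00589), so the return rests on the brighter one. The mean of both gave -0.29 from day 1 to day 17 (adjusted p = 0.35) and 0.62 between day -17 and day 17 (adjusted p = 0.0297). The rise by day 1 was lost without any array but pool 2 of day 1 or pool 2 of day 17 (adjusted p 0.0519 to 0.14), and with no filter, no intensity trend or the 6 arrays alone (0.0568 to 0.0636) and with E. coli scaling (0.21, adjusted p = 0.382). The fall was lost without any array but pool 2 of day -17 or pool 2 of day 1 (adjusted p 0.0556 to 0.15), and with quantile normalization, median centring, no filter, no intensity trend or the 6 arrays alone (0.0546 to 0.0712).

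ARF6, the plasma membrane ARF, rose by 0.39 ± 0.14 by day 17 (adjusted p = 0.0392), from 2076, 2569 and 2283 to 3152, 3107 and 2827. The call was lost without any day 17 pool, pool 1 of day -17 or pool 3 of day -17 (adjusted p 0.0561 to 0.121), with quantile normalization (0.0755) and without an intensity trend (0.069). By day 1 it gave 0.40 ± 0.14 (adjusted p = 0.0615, and 0.0458 with pool number as a block), and E. coli scaling reversed the day 17 difference (-0.91). ARF5, a Golgi ARF, had signals of 499 to 625 on day -17, of 388 to 489 on day 1 and of 525 to 653 on day 17, and neither step passed the test (adjusted p = 0.131 and 0.0744).

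All 3 ARL genes passed by day 1, with ARL1 higher and ARL2 and ARL3 lower (33.3% and 66.7%, against 15.3% and 10.4% of all tested genes). ARL1, which brings golgin tethers to the trans-Golgi, had signals of 1222, 1075 and 1055 on day -17, of 3459, 3626 and 4915 on day 1, and of 4058, 3812 and 3370 on day 17. The 6 lactation pools all lay far above any pregnancy pool and overlapped between the 2 days. ARL1 had the largest rise of any member by day 1 (1.83 ± 0.15, 3.54-fold, adjusted p = 5.48e-05) and stood 1.74 ± 0.15 up on day 17 (adjusted p = 2.6e-05). Both calls held with E. coli scaling (1.40 and 0.44).

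ARL2 and ARL3 bind proteins that carry lipid-modified cargo to cilia and other membranes, and ARL2 also takes part in tubulin folding. ARL2 had signals of 434, 379 and 416 on day -17, of 230.4, 272 and 252 on day 1, and of 194, 175 and 217 on day 17. The 3 days were wholly separate, and ARL2 fell by 0.71 on the log2 scale by day 1 (SE 0.16, adjusted p = 0.0128) and by 1.07 by day 17 (SE 0.16, 2.10-fold, adjusted p = 0.000627), both kept without any single array. ARL3 had signals of 1147, 1676 and 1096 on day -17, of 774.5, 621 and 902 on day 1, and of 537, 463 and 389 on day 17. Its days too were separate, and it was the member that fell in both intervals (-0.76 ± 0.21, adjusted p = 0.0269, and -0.72 ± 0.21, adjusted p = 0.0473), 2.79-fold in all (-1.48 ± 0.21, adjusted p = 0.000404). The first step was lost without pool 2 of day -17 or pool 2 of day 1 (adjusted p 0.0884 and 0.0876). The second was lost without any array but pool 2 of day -17 or pool 2 of day 1 (adjusted p 0.0518 to 0.146), with quantile normalization (0.0752), no filter (0.0601) or no intensity trend (0.0703), and with pool number as a block (0.0524).

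Of the 4 genes named for binding ARL proteins, ARL6IP1, a protein that shapes ER membranes, dipped on day 1. Its signals were 3554, 3192 and 3155 on day -17, 2812, 2133 and 2348 on day 1, and 3319, 3571 and 3201 on day 17. All day 1 pools lay below the other 6, which overlapped. It fell (-0.45 ± 0.13, adjusted p = 0.0303) and rose again (0.48 ± 0.13, adjusted p = 0.0357). The fall was lost without any day -17 pool, pool 2 of day 1 or pool 3 of day 1 (adjusted p 0.0624 to 0.0972), and with median centring, no intensity trend or the 6 arrays alone (0.0592 to 0.0985). The rise was lost without any day 17 pool, pool 3 of day -17, pool 2 of day 1 or pool 3 of day 1 (adjusted p 0.0538 to 0.114) and with the same 3 settings (0.0547 to 0.0695), and E. coli scaling turned it to -0.40. ARL6IP5, a protein of the ER that restrains glutamate transport, fell by day 17 (-0.89 ± 0.24, adjusted p = 0.0131), from 853, 577 and 750.5 to 379.8, 427.5 and 360.5, and its second probe set fell by 1.28 (SE 0.33). ARL2BP, which binds ARL2, and ARL6IP4 passed in no comparison.

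Syntaxins moved in both directions. Of 7 tested, STX5 and STX10 rose and STX6 fell by day 1, and by day 17 STX4 and STX11 were lower as well. Shares by day 1 were 28.6% higher and 14.3% lower, against 15.3% and 10.4% of all tested genes. Those by day 17 were 28.6% and 42.9%, against 23.8% in each direction. In limma 0 of the 7 passed from day 1 to day 17 (2 at an unadjusted p under 0.05, 1 in each direction). STX5, the syntaxin of ER to Golgi fusion, had signals of 706, 552 and 793 on day -17, of 994, 1193 and 1426 on day 1, and of 1477, 1463 and 1231 on day 17. Every lactation pool lay above every pregnancy pool, and it rose by 0.82 ± 0.18 by day 1 (adjusted p = 0.0103) and by 1.03 ± 0.18 by day 17 (2.05-fold, adjusted p = 0.00133). Its other 2 probe sets rose by 0.63 ± 0.23 and 1.11 ± 0.25 by day 17, and both passed. Under E. coli scaling STX5 gave 0.39 (adjusted p = 0.0932) and -0.27.

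STX10, a syntaxin of the trans-Golgi and endosomes, had signals of 641, 711 and 673 on day -17, of 910.2, 863.5 and 1096 on day 1, and of 1277, 1290 and 1316 on day 17. The 3 days were wholly separate and ascending. It rose by 0.50 ± 0.13 by day 1 (adjusted p = 0.0226) and by 0.94 ± 0.13 by day 17 (1.92-fold, adjusted p = 0.000375; -0.36 with E. coli scaling). The first was lost without pool 1 of day -17, pool 3 of day -17 or pool 3 of day 1 (adjusted p 0.062 to 0.077) and in the 6 arrays alone (0.0575). The step from day 1 to day 17 missed the threshold narrowly (0.44 ± 0.13, adjusted p = 0.0501, and 0.0492 with pool number as a block). It passed in the second probe set (0.61 ± 0.14, adjusted p = 0.0208), with a pseudocount of 16 (0.0484), with a stricter filter (0.0367), with the mean over probe sets (0.0164) and without pool 3 of day 1 (0.55, adjusted p = 0.0369), and turned to -0.43 with E. coli scaling.

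STX6, a syntaxin between the trans-Golgi and endosomes, had signals of 1064, 1134 and 919 on day -17, of 821.5, 660.5 and 722 on day 1, and of 798, 732 and 795 on day 17. Day -17 stood above all lactation pools, and the 2 lactation days overlapped. It fell by 0.50 on the log2 scale by day 1 (SE 0.14, adjusted p = 0.0286) and by 0.42 by day 17 (SE 0.14, adjusted p = 0.0328). The first call was lost without pool 1 of day -17, pool 2 of day -17, pool 2 of day 1 or pool 3 of day 1 (adjusted p 0.0697 to 0.0938) and with quantile normalization, median centring or the 6 arrays alone (0.0507 to 0.0703). The second was lost without any day 17 pool, pool 1 of day -17 or pool 2 of day -17 (adjusted p 0.0616 to 0.109), and with quantile normalization (0.0952) or median centring (0.069).

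STX4, the plasma membrane syntaxin of many secretory cells, had signals of 565.5, 483 and 563 on day -17, of 599, 426 and 361 on day 1, and of 290.4, 312 and 294 on day 17. Day 17 lay below all 6 other pools, and the first 2 days overlapped. It fell 1.79-fold by day 17 (-0.84 ± 0.19, adjusted p = 0.00535), a call kept without any single array, and its dimmer second probe set gave -0.71 ± 0.37. STX11, a syntaxin of cytotoxic granule release in leukocytes, had signals of 343, 265 and 294 on day -17, of 231, 161.5 and 55 on day 1, and of 92.2, 89.8 and 103 on day 17. All lactation pools lay below all pregnancy pools, with day 1 spread widely. It fell 3.15-fold by day 17 (-1.66 ± 0.44, adjusted p = 0.0109). The day 17 signals stood near the 40th percentiles of their arrays (90.7 to 94.2), and pool 3 of day 1 lay below that of its array (82.1). The size of the STX11 fall thus rests on signals near the floor. On day 1 it gave -1.23 ± 0.44 (adjusted p = 0.064), and passed with pool number as a block (0.0471) and without pool 1 of day 1 (-1.67, adjusted p = 0.0133). From day 1 to day 17 it passed without pool 3 of day 1 (-1.03, adjusted p = 0.0369). It also passed with E. coli scaling (-1.30, adjusted p = 0.0272), which lowers every difference and so is no support for a fall. STX8, an endosomal syntaxin, and STX18, a syntaxin of the ER, lay within 0.09 of 0 in each comparison in their brightest probe sets. The second probe set of STX18 gave 0.78 from day 1 to day 17 and 0.82 between day -17 and day 17. That of STX8 gave -0.20 by day 1 and 0.19 from day 1 to day 17. None of these passed.

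Neither of the 2 VAMPs associated with cell surface and endosomal fusion passed: VAMP8, an endosomal VAMP used by secretory cells of the pancreas, had signals of 2962 to 3404 on day -17 and 3533 to 3889 in lactation (0.26 ± 0.11 by day 1, adjusted p = 0.103). VAMP3, of recycling endosomes, differed by -0.37 ± 0.14 by day 1 (adjusted p = 0.079). VAMP7, of late endosomes and lysosomes, had 824, 379 and 281 on day -17, 301, 262 and 235 on day 1, and 244, 260.2 and 224 on day 17. Day -17 pool 1 stood far above the rest, and the lactation pools lay below all pregnancy pools apart from pool 1 of day 1. Its fall by day 17 (-0.88 ± 0.33, adjusted p = 0.0496) was lost without any array but pool 3 of day -17 (adjusted p 0.0515 to 0.132), and with quantile normalization, median centring, no filter, no intensity trend, the 6 arrays alone or the mean-over-probe-sets fit (0.052 to 0.0946). On day 1 it passed without pool 3 of day -17 (-1.08, adjusted p = 0.0434). It also passed with E. coli scaling (-1.18, adjusted p = 0.0215), which lowers every difference and so is no support for a fall.

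SNAP23, the broadly expressed relative of SNAP-25 that pairs with plasma membrane syntaxins, had signals of 1655, 1447 and 1328 on day -17, of 2443, 2119 and 2221 on day 1, and of 2563, 2846 and 2692 on day 17. The 3 days were wholly separate and ascending. It rose by 0.62 ± 0.12 by day 1 (adjusted p = 0.00659) and by 0.88 ± 0.12 by day 17 (1.83-fold, adjusted p = 0.000402). With E. coli scaling these were 0.19 (adjusted p = 0.296) and -0.43. SNAP29, a SNARE of autophagosome fusion, gave 0.91 ± 0.37 by day 17 (adjusted p = 0.0642), with pools of both days overlapping. SNAP47 ranged from 36.5 to 154 and passed in no comparison.

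Sorting nexins bind phosphoinositides on endosomes and shape or sort their membranes. Of 13 tested, 2 rose and 1 fell by day 1, 1 rose from day 1 to day 17, and 4 rose and 3 fell between day -17 and day 17. As shares these were 15.4% and 7.69%, then 7.69%, then 30.8% and 23.1%. They lay near those of all tested genes (15.3% and 10.4%, then 8.02%, then 23.8% in each direction). SNX22 had signals of 4301, 4369 and 4544 on day -17, of 9952, 13620 and 16630 on day 1, and of 9281, 9969 and 9631 on day 17. The pregnancy pools were close together and far below all lactation pools, and the day 1 pools spread widely upward from within the day 17 range. SNX22 rose by 1.57 ± 0.16 by day 1 (2.98-fold, adjusted p = 0.000213) and stood 1.13 ± 0.16 up on day 17 (adjusted p = 0.000426; -0.18 with E. coli scaling). Day 17 against day 1 gave -0.45 ± 0.16 (adjusted p = 0.0919), which passed without pool 1 of day 1 (-0.65, adjusted p = 0.00707) and with quantile normalization (-0.48, adjusted p = 0.0494).

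SNX3, which sorts receptors with the retromer, had signals of 7548, 6610 and 6873 on day -17, of 9945, 12000 and 13510 on day 1, and of 17140, 15190 and 15930 on day 17. The 3 days were separate and ascending. It rose by 0.74 ± 0.13 by day 1 (adjusted p = 0.00296), by 0.45 ± 0.13 from day 1 to day 17 (adjusted p = 0.0397) and by 1.20 ± 0.13 in all (2.29-fold, adjusted p = 7.2e-05). The middle step was lost without any array but pool 1 of day -17 or pool 3 of day 1 (adjusted p 0.0527 to 0.124), and with median centring, no filter, no intensity trend or the 6 arrays alone (0.069 to 0.102). Scaled to the E. coli controls, the 3 values were 0.32, -0.42 and -0.10.

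SNX8, an endosomal nexin, had signals of 33.3, 31.7 and 61.5 on day -17, of 62.5, 122 and 113 on day 1, and of 134, 186 and 87.4 on day 17, so its pregnancy signals lay below the 40th percentile of the arrays. Pool 1 of day 1 and pool 3 of day 17 also lay below the 40th percentiles of their arrays (89.08 and 93.29). The sizes of the SNX8 rises thus rest on signals near the floor. Every lactation pool lay above every pregnancy pool, by a small margin for day 1. It rose 3.23-fold by day 17 (1.69 ± 0.43, adjusted p = 0.00953), and scaling to E. coli left 0.39 (adjusted p = 0.412). On day 1 it gave 1.25 ± 0.43 (adjusted p = 0.0605) and passed without pool 1 of day 1 (1.55, adjusted p = 0.0293), with median centring (0.0498), without an intensity trend (0.0479) and with pool number as a random block (0.046). SNX1, a nexin of the retromer coat, rose by 0.39 ± 0.14 by day 17 (adjusted p = 0.0436; -0.92 with E. coli scaling). That call was lost without any array but pool 1 of day -17, pool 1 of day 1 or pool 3 of day 1 (adjusted p 0.0559 to 0.161), and with no filter, no intensity trend or the 6 arrays alone (0.052 to 0.0674).

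SNX24 had the largest fall of any member that passed by day 1. Its signals were 643, 367 and 423 on day -17, 263, 239.6 and 171 on day 1, and 217, 164 and 134.5 on day 17. All lactation pools lay below all pregnancy pools. It fell 2.10-fold by day 1 (-1.07 ± 0.27, adjusted p = 0.0188) and 2.75-fold by day 17 (-1.46 ± 0.27, adjusted p = 0.00182). The first call was lost without pool 1 of day -17 or pool 3 of day 1 (adjusted p 0.0616 and 0.0736). SNX6, a partner of SNX1 in the retromer coat, fell by day 17 (-0.66 ± 0.21, adjusted p = 0.0288), with 1 pool of day 17 low (509, 913 and 963 against 1185 to 1230 on day -17). The 4 probe sets of SNX6 differed by -0.25 to -1.44, and 3 of them passed. The call was lost without any day -17 pool or pool 1 of day 17 (adjusted p 0.0525 to 0.0735). SNX10, a nexin of the vacuolar ATPase and of osteoclasts, fell by 0.58 on the log2 scale (SE 0.19, adjusted p = 0.0268), a call lost without pool 1 of day -17, pool 3 of day -17 or pool 2 of day 17 (adjusted p 0.0908 to 0.0945) and with quantile normalization (0.0806) or median centring (0.069). SNX5, another retromer nexin, gave -0.40 ± 0.15 by day 17 (adjusted p = 0.0504, and 0.0399 with pool number as a block).

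Among VPS genes of the ESCRT machinery, which buds cargo into endosomes and cuts membrane necks, VPS37B rose in every comparison. Its signals were 319, 485 and 359 on day -17, 770.0, 844 and 873 on day 1, and 1889, 1540 and 1717 on day 17. The 3 days were wholly separate, with wide gaps between them. VPS37B, a subunit of ESCRT-I, rose by 1.12 ± 0.17 by day 1 (2.17-fold, adjusted p = 0.00182), by 1.05 ± 0.17 from day 1 to day 17 (2.06-fold, adjusted p = 0.00551) and by 2.16 ± 0.17 in all (4.48-fold, adjusted p = 1.41e-05). All 3 calls held without any single array. Under E. coli scaling the values were 0.69 and 0.86 for the first and last, both called, and 0.17 from day 1 to day 17 (adjusted p = 0.356).

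VPS4A, the ATPase that takes ESCRT filaments apart, rose by 0.51 ± 0.15 by day 17 (adjusted p = 0.0187; -0.80 with E. coli scaling), from 664, 776 and 755 to 981, 1082 and 1048. The call was lost without pool 1 of day -17, pool 2 of day 17 or pool 3 of day 17 (adjusted p 0.0512 to 0.0604). The other 4 ESCRT members, VPS25, VPS28, VPS36 and VPS37D, passed in no comparison, with log2 differences by day 17 between -0.36 and 0.08.

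The HOPS and CORVET complexes tether late and early endosomes before fusion. Of their 6 tested subunits, 1 fell by day 1 and 3 by day 17, and 0 rose in limma (0 by day 1 or by day 17 also at an unadjusted p under 0.05; median -0.45 by day 17, against -0.0324 over all tested genes). These falls made 16.7% and 50% of the 6, against 10.4% and 23.8% of all tested genes, of which 15.3% and 23.8% rose. Between day 1 and day 17, 0 of the 6 passed in limma, against 8.02% higher and 8.57% lower of all tested genes. At an unadjusted p under 0.05, 2 of them were higher and 0 lower in that interval. VPS41, a HOPS subunit, had signals of 1262, 1232 and 1544 on day -17, of 867, 749 and 927 on day 1, and of 717.5, 629.9 and 789 on day 17. Pregnancy pools lay above all lactation pools, and it fell by 0.67 on the log2 scale by day 1 (SE 0.15, adjusted p = 0.0119) and by 0.92 by day 17 (SE 0.15, 1.89-fold, adjusted p = 0.000973). The first call was lost without pool 3 of day -17 (adjusted p = 0.0512). VPS39, the other subunit particular to HOPS, fell by day 17 (-1.04 ± 0.33, 2.06-fold, adjusted p = 0.024), from 383, 400.3 and 451 to 236, 301 and 111. Its dimmer second probe set gave 0.14 ± 0.28, and the mean of both did not pass (-0.45, adjusted p = 0.199). The call was also lost without pool 2 of day -17, pool 3 of day -17 or pool 3 of day 17 (adjusted p 0.0524 to 0.073).

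VPS33A, the Sec1/Munc18 protein of both complexes, fell by 0.61 on the log2 scale by day 17 (SE 0.19, adjusted p = 0.0233), from 358, 344 and 391 to 281, 188 and 258. This was lost without pool 3 of day -17 or pool 2 of day 17 (adjusted p 0.0768 and 0.0813) and with quantile normalization (0.0697). The shared core subunits VPS11, VPS16 and VPS18 did not pass, at 0.30 ± 0.18, -0.29 ± 0.15 and -0.00 ± 0.19 by day 17.

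The retromer returns receptors from endosomes to the Golgi and cell surface. VPS26A fell by day 17 (-0.53 ± 0.14, adjusted p = 0.0132), from 2033, 2076 and 1673 to 1220, 1495 and 1294. The second probe set gave 0.18 ± 0.16, the mean of both -0.18 (adjusted p = 0.27), and without pool 1 of day 17 the call was lost (adjusted p = 0.0509). VPS26B gave -0.64 ± 0.24 (adjusted p = 0.0508), and 0.0045 with pool number as a block. VPS29 passed in no comparison. The GARP subunit VPS52, which tethers vesicles at the trans-Golgi, gave 0.25 ± 0.13 by day 1 (adjusted p = 0.175).

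VPS72, a subunit of chromatin remodelling complexes despite its name, had signals of 514, 404 and 476 on day -17, of 363, 552 and 393 on day 1, and of 292, 248 and 239.8 on day 17. Day 17 lay below all other pools, and the first 2 days overlapped. It fell from day 1 (-0.73 ± 0.19, adjusted p = 0.0351) and from day -17 (-0.84 ± 0.19, adjusted p = 0.0059). The dimmer second probe set gave -0.10 ± 0.37 and 0.26 ± 0.37, and the mean of both did not pass (adjusted p = 0.299 and 0.384). The fall from day 1 was also lost without any array but pool 1 of day -17, pool 2 of day -17 or pool 1 of day 1 (adjusted p 0.0546 to 0.105), with no filter (0.0506) and in the 6 arrays alone (0.0599). VPS13C and VPS13D, which transfer lipids between membranes, and VPS45, a Sec1/Munc18 protein of endosomes, did not pass, though VPS13D did by day 17 with pool number as a block (0.55, adjusted p = 0.0185).

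**Figure D3:**
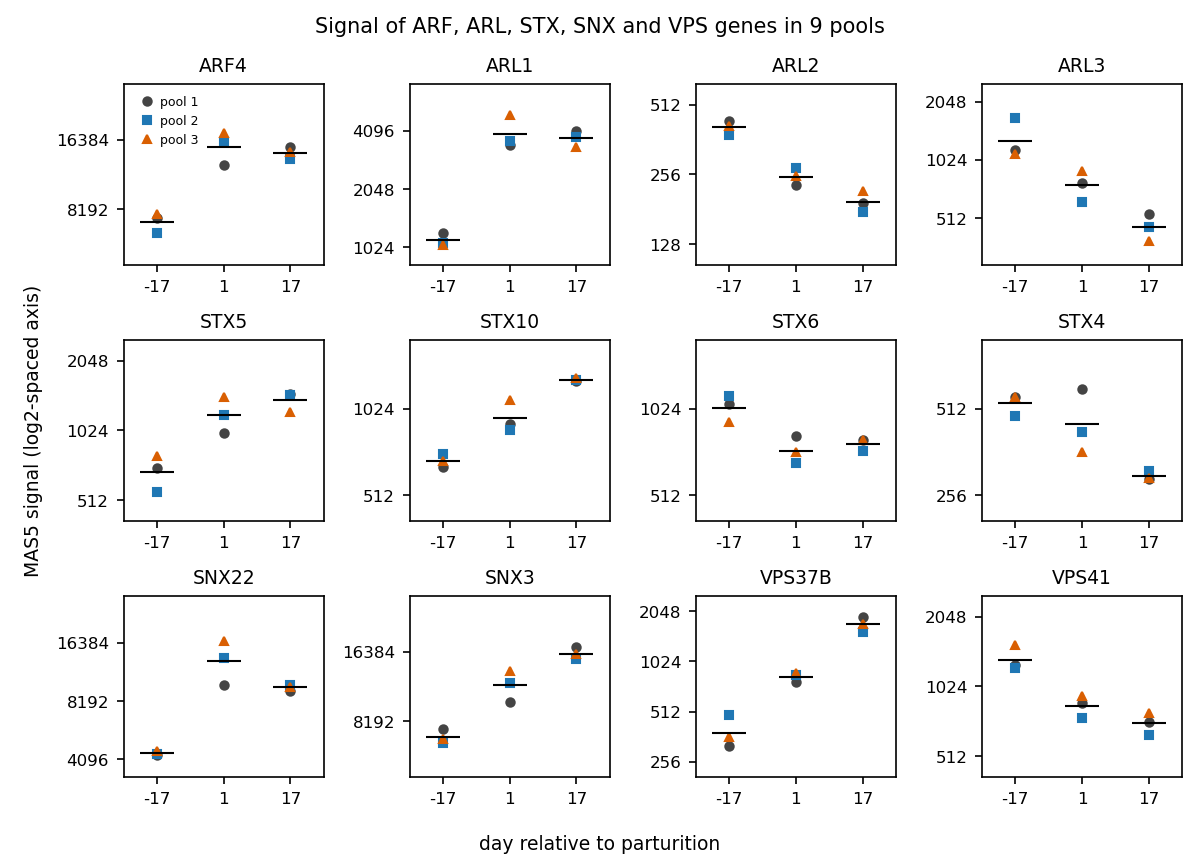
Points are the MAS5 signals of 12 ARF, ARL, STX, SNX and VPS genes in the 9 pools (marker shape and colour give the pool number), against the day relative to parturition, on log2-spaced axes; bars are the means of the log2 signals of each day. ARF4, ARL1, STX5, STX10, SNX22, SNX3 and VPS37B were higher in all lactation pools than in any pregnancy pool, and ARL2, ARL3, STX6 and VPS41 lower, while STX4 was low on day 17. With scaling to the E. coli controls ARF4, STX5, STX10, SNX22 and SNX3 were lower on day 17 than on day -17.

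Genes that work beside the members were described from 6 lists of partner genes, of which 75 were tested. Of these, 16 rose and 7 fell by day 1, 4 rose and 0 fell in limma from day 1 to day 17 (10 and 3 at an unadjusted p under 0.05), and 25 rose and 10 fell by day 17. As shares these were 21.3% and 9.33% by day 1 (against 15.3% and 10.4% of all tested genes), 5.33% and 0% from day 1 to day 17 (8.02% and 8.57%), and 33.3% and 13.3% by day 17 (23.8% in each direction). Their medians were 0.117, 0.0895 and 0.198, against -0.000822, -0.0352 and -0.0324 over all tested genes. As for the members, rises below 0.429, 0.874 and 1.3 turned to falls with E. coli scaling.

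Among 10 other SNAREs and disassembly factors, 3 rose by day 1 and 4 by day 17, and 0 fell in limma (1 in each at an unadjusted p under 0.05). These rises made 30% and 40% of the 10, where all tested genes gave 15.3% and 23.8% higher, and 10.4% and 23.8% lower. YKT6, an R-SNARE of the Golgi, had nearly equal signals on day -17 (935, 935 and 929.6) and 1702, 2485 and 2422 on day 1, a rise of 1.22 ± 0.17 (2.33-fold, adjusted p = 0.000944). GOSR2 and BET1, which join STX5 in ER to Golgi fusion, rose too. GOSR2 went from 187, 213.5 and 159 to 281, 404 and 608 on day 1 (1.15 ± 0.26, adjusted p = 0.0112), and BET1 from 532, 497 and 428 on day -17 to 1051, 1055 and 1125 on day 17 (1.15 ± 0.14, adjusted p = 0.000168). By day 17 E. coli scaling gave -0.15 for BET1 and -0.20 for GOSR2. Of the 2 tested Sec1/Munc18 and syntaxin binding genes, SCFD1, which binds STX5, rose by 0.70 ± 0.14 by day 1 (adjusted p = 0.00664; 0.28 with E. coli scaling, adjusted p = 0.1) and did not pass by day 17.

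Among 15 ARF exchange factors, GAPs and effectors, 4 rose and 1 fell by day 1, 2 rose from day 1 to day 17, and 8 rose and 2 fell by day 17. The shares were 26.7% and 6.67%, then 13.3%, then 53.3% and 13.3%. All tested genes gave 15.3% and 10.4%, then 8.02%, then 23.8% in each direction. ARFGAP3, a GAP of the Golgi, had signals of 634, 689.8 and 682 on day -17, of 1159, 1547 and 1966 on day 1, and of 2241, 2255 and 3019 on day 17. Its 3 days were wholly separate, and it rose by 1.19 ± 0.20 by day 1 (adjusted p = 0.00253) and by 1.89 ± 0.20 by day 17 (3.71-fold, adjusted p = 6.52e-05). Its step from day 1 to day 17 (0.70 ± 0.20, adjusted p = 0.0397) was lost without any array but pool 1 of day -17 or pool 3 of day 1 (adjusted p 0.0531 to 0.133), and with median centring, no intensity trend or the 6 arrays alone (0.0639 to 0.0651). ARFIP2, an ARF and ARL1 effector, rose by 1.15 ± 0.21 by day 1 (adjusted p = 0.00382) and 1.10 ± 0.21 by day 17 (adjusted p = 0.00191). GGA1, an ARF-dependent clathrin adaptor, rose by 0.76 ± 0.17 from day 1 to day 17 (adjusted p = 0.0165), a call lost without pool 2 or 3 of day 17 (adjusted p 0.0627 and 0.0588). E. coli scaling turned the later steps to -0.17 for ARFGAP3 and -0.11 for GGA1, and ARFIP2 by day 17 to -0.20.

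Of 23 tethers (exocyst, COG and TRAPP subunits and golgins), 4 rose and 3 fell by day 1, 1 rose from day 1 to day 17, and 8 rose and 2 fell by day 17. By share this was 17.4% and 13%, then 4.35%, then 34.8% and 8.7%. All tested genes gave 15.3% and 10.4%, then 8.02%, then 23.8% in each direction. COG8, a subunit of the Golgi tether COG, had signals of 65.2, 59.8 and 57.7 on day -17, of 139, 229.7 and 224 on day 1, and of 299, 379.5 and 309.6 on day 17. The 3 days were wholly separate, with the day -17 signals below the 40th percentile of the arrays. It rose by 1.67 ± 0.24 by day 1 (3.17-fold, adjusted p = 0.00147) and 2.43 ± 0.24 by day 17 (5.39-fold, adjusted p = 5.5e-05). TRAPPC2L, a TRAPP subunit, rose by 0.76 ± 0.12 by day 1 (adjusted p = 0.00201), and EEA1, an early endosome tether, by 1.10 ± 0.26 by day 17 (adjusted p = 0.00679; -0.20 with E. coli scaling). GCC2, a golgin, rose by 0.42 ± 0.12 from day 1 to day 17 (adjusted p = 0.0475; -0.46 with E. coli scaling), a call lost without any array but pool 1 of day -17 (adjusted p 0.0558 to 0.139), and with quantile normalization, median centring, no filter, no intensity trend or the 6 arrays alone (0.0566 to 0.0759).

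Of 13 genes of Rab prenylation, extraction and regulation, 2 rose and 1 fell by day 1, and 2 rose and 3 fell by day 17. That is 15.4% and 7.69%, then 15.4% and 23.1%, against 15.3% and 10.4%, then 23.8% in each direction, of all tested genes. RIN3, an exchange factor for endosomal Rabs, had signals of 254, 244 and 237.5 on day -17, of 76.3, 77.8 and 63.7 on day 1, and of 109.8, 96.5 and 98 on day 17. All lactation pools lay far below all pregnancy pools, the day 1 signals also below the 40th percentile of the arrays, with a fall of 3.39-fold by day 1 (-1.76 ± 0.22, adjusted p = 0.000593) and of 1.27 on the log2 scale by day 17 (SE 0.22, adjusted p = 0.00124). YIPF5, a Golgi membrane protein that binds Rabs, rose by 0.65 ± 0.14 by day 1 (adjusted p = 0.00836), a call lost with E. coli scaling (0.23, adjusted p = 0.213). TBC1D10A, a Rab GAP, fell by day 17 (-0.94 ± 0.27, adjusted p = 0.0178), a call lost without pool 1 of day -17, pool 2 of day -17 or pool 3 of day 17 (adjusted p 0.0516 to 0.0603).

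Of 12 further ESCRT and CHMP genes, 2 rose and 2 fell by day 1, 1 rose from day 1 to day 17, and 3 rose and 3 fell by day 17. Expressed as shares, these were 16.7% in each direction, then 8.33%, then 25% in each direction. All tested genes gave 15.3% and 10.4%, then 8.02%, then 23.8% in each direction. CHMP1B, an ESCRT-III subunit, had signals of 3221, 3947 and 4160 on day -17, of 1267, 1390.0 and 1075 on day 1, and of 1122, 1190.0 and 1181 on day 17. Lactation signals lay far below pregnancy signals in every pool (-1.60 ± 0.14 by day 1, 3.03-fold, adjusted p = 7.6e-05; -1.69 ± 0.14 by day 17, adjusted p = 2.05e-05). PDCD6IP (ALIX), which brings ESCRT-III to membranes, rose by 0.71 ± 0.11 by day 1 (adjusted p = 0.00207), which E. coli scaling left at 0.29 (adjusted p = 0.0629). CHMP4A, another ESCRT-III subunit, rose by 0.98 ± 0.12 by day 17 (adjusted p = 0.000194) and by 0.43 ± 0.12 from day 1 (adjusted p = 0.0429). The latter call was lost whichever of the 9 arrays was left out (adjusted p 0.052 to 0.134), and with median centring, no filter, no intensity trend or the 6 arrays alone (0.0555 to 0.0736). With E. coli scaling CHMP4A was at -0.32 and -0.44.

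Probe sets of the same gene did not always give the same answer. Of the 30 members with more than 1 tested probe set, the sign differed between probe sets in 12 for day 1 against day -17, in 9 for day 17 against day 1 and in 8 for day 17 against day -17. No gene was called in both directions by its probe sets in any comparison. The 6 members not tested had low signals: RAB19 (10.3 to 193), SNAP25 (2.80 to 25.3), SNAP91 (6.39 to 78.2), SNX30 (27.6 to 124), STX16 (52 to 133) and VPS53 (3.86 to 57.6). SNAP25 is the SNARE of nerve terminals, SNAP91 a clathrin assembly protein of neurons, STX16 a trans-Golgi syntaxin and VPS53 a GARP subunit.

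**Figure D4:**
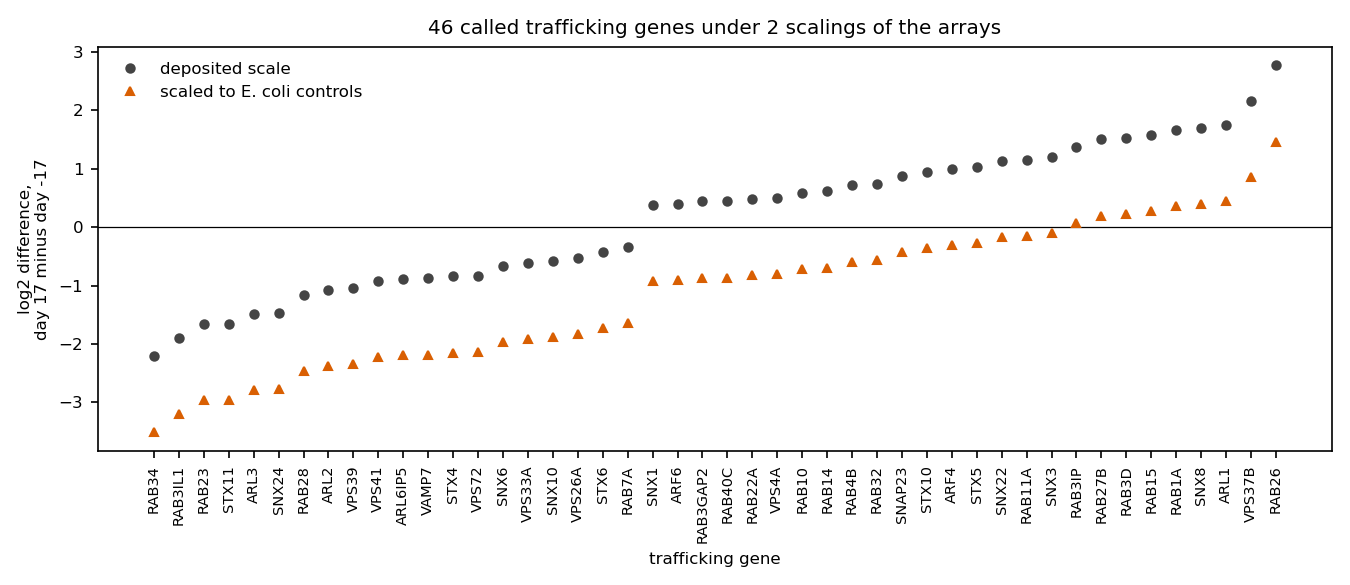
For the 46 trafficking genes that passed the test between day -17 and day 17, the log2 difference (y axis) is shown on the deposited scale (circles) and after scaling to the 21 E. coli control probe sets (triangles). The 2 differ by 1.3 for every gene, and 17 of the 26 rises turn below 0, while RAB26, VPS37B, ARL1 and RAB1A remain called as rises. All 20 falls remain falls, which was fixed in advance because the scaling lowers every difference.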

How the data were processed

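The deposited values are intensities: a linear MAS5 signal for each of the probe sets of every array, produced by the authors per the submitters' processing notes, with the version not given in the sources used here. Control probe sets (124) were left out. A probe set was tested if it reached the array's 40th percentile in at least 3 of 9 arrays, and log2 signals with no pseudocount were fitted to day with limma 3.58.1 in R 4.3.3 (lmFit, eBayes with an intensity trend), over all 9 arrays, two-sided. The code was tested on simulated data. Each gene is given by its brightest probe set (mean log2 signal over the arrays). Symbols came from the platform annotation, and 5 matching probe sets with several symbols were left out.

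The members, marker lists, role lists and partner lists were chosen with earlier results of these data known. Named are, per comparison, up to 10 rises and 8 falls with separate groups, the member of each role list with the smallest F test p, and the 2 called genes of each partner list with the largest change. Members named beyond these were chosen after their values were seen.

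Pools with the same number deviated together from their day's mean, across probe sets: correlations were 0.235 to 0.506 for day 1 with day -17, 0.105 to 0.13 for day 17 with day -17, and 0.096 to 0.107 for day 17 with day 1. Pools with unlike numbers gave -0.387 to 0.113, -0.0739 to -0.0421 and -0.0768 to -0.0268, in the same order. No label gives the pairing. Pool number was a block in alternatives. Other alternatives were quantile normalization, median centring, E. coli control scaling, a pseudocount of 16, no filter, the 60th percentile as a stricter filter, no intensity trend, the 6 compared arrays alone, the mean over probe sets, a minimum fold of 1.5 and leaving out each array.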

Additional observations from a re-analysis of the deposited data

How the results depend on the processing

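The counts of members higher and lower depended most on scaling. With E. coli scaling the members higher were 9, 1 and 4 and the members lower 34, 72 and 72 (from day -17 to day 1, from day 1 to day 17 and from day -17 to day 17), and 80 members differed among the 3 days. For day 17 against day 1, the 6 compared arrays alone gave 3 higher and 1 lower, a minimum fold of 1.5 gave 3 higher, no filter gave 0 lower (4 otherwise, limma) and no intensity trend gave 1 lower. The cause of these shifts was not tested, apart from E. coli scaling, which lowers every difference by construction. Leaving out 1 array at a time gave 12 to 19, 2 to 6 and 21 to 27 members higher and 3 to 9, 0 to 3 and 13 to 22 lower, and 30 to 42 that differed among the days.

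E. coli scaling reversed these rises from day 1 to day 17: ARL6IP1 -0.40, RAB15 -0.016, RAB22A -0.31, SNX3 -0.42, ARFGAP3 -0.17, CHMP4A -0.44, GCC2 -0.46 and GGA1 -0.11. For RAB11A -0.73, RAB1A -0.56, RAB3D -0.66, RAB3IP -0.81, SNAP23 -0.62, STX10 -0.43, STX5 -0.66 and STX6 -0.79 in the same interval, no call existed on the deposited scale. The rises between day -17 and day 17 that reversed were ARF4 -0.31, ARF6 -0.91, RAB10 -0.72, RAB11A -0.16, RAB14 -0.69, RAB22A -0.82, RAB32 -0.57, RAB3GAP2 -0.86, RAB40C -0.86, RAB4B -0.59, SNAP23 -0.43, SNX1 -0.92, SNX22 -0.18, SNX3 -0.10, STX10 -0.36, STX5 -0.27, VPS4A -0.80, ARFIP2 -0.20, BET1 -0.15, CHMP4A -0.32, EEA1 -0.20 and GOSR2 -0.20, while ARL6IP1 at -1.28 and VPS52 at -1.25 had no call before. The mean over probe sets turned the difference of ARF2 between day -17 and day 17 to 0.62.

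With pool number as a fixed replicate block the members higher were 18, 7 and 27 and those lower 8, 3 and 22, and the member calls it changed are those given above. As a random block it gave 20, 8 and 27 higher and 7, 5 and 22 lower, gaining ARF6, RAB10, RAB3GAP2, RAB4B, SNX8 and STX11 by day 1 (adjusted p 0.0393 to 0.0468), ARF5, STX10 and STX4 from day 1 to day 17 (0.0341 to 0.0489), and SNX5, VPS26B and VPS45 by day 17 (0.0268 to 0.0425), and losing 0 member calls in limma.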
